A study of Rattus norvegicus with 4 samples.

Results

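Vitamin A reaches the testis as retinol and acts there as retinoic acid, and the genes described here encode enzymes on that route: Rdh10, Adh4, Adh7, Adh1c, Aldh1a1, Aldh1a2, Cyp26b1 and Rpe65. They were taken by gene symbol, as every probe set that the array's annotation ties to 1 of these symbols alone (Adh1c also under its older name Adh1). This gave 9 of the 8799 probe sets on the array, 2 for Adh1c and 1 for each of the other 7 genes, and no probe set named a member together with another gene. The group is wider than its usual name of retinol and retinal oxidising enzymes, because Cyp26b1 oxidises retinoic acid itself and Rpe65 is an isomerase of retinyl esters rather than an oxidising enzyme.

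The study followed whole rat testis on the Affymetrix Rat Genome U34 array, on which a probe set of short oligonucleotides reads each transcript. All animals went onto a diet lacking vitamin A at 20 days of age and stayed on it for 9 weeks. The 4 groups were vitamin A-deficient testis with no retinol (VAD, the 0 h group) and deficient testis 4 h, 8 h and 24 h after retinol was given, with 1 deposited sample each, called an array below. The sources used here do not give the strain, the retinol dose, the number of animals behind a sample or any pooling. No value has a replicate, so no difference below was tested between animals.

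Retinol is oxidised reversibly to retinal, and retinal irreversibly to retinoic acid, the ligand of the nuclear retinoic acid receptors. The reversible step is carried out by microsomal retinol dehydrogenases such as RDH10 and by cytosolic alcohol dehydrogenases, the irreversible step by the retinal dehydrogenases of the ALDH1A family, and CYP26 enzymes then hydroxylate retinoic acid for removal. In the mouse testis Sertoli cells and germ cells both make retinoic acid, which is needed for spermatogonia to differentiate and enter meiosis, and spermatogenesis halts when the diet holds no vitamin A.

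The deposited values were linear ratios per probe set, with no signal level, so whether a transcript was bright, dim or absent cannot be seen and neither the tissue nor any cell type could be checked by the presence of its markers. What the ratios are relative to is not stated in those sources, and 60.5% of the 7006 probe sets with 1 gene symbol had a VAD ratio within 10% of 1. Of the 9 enzyme probe sets 5 lay within that range, and the others were Adh7 (1.369), Adh4 (1.177), 1 Adh1c probe set (1.107) and Cyp26b1 (0.874). Changes are log2 differences in deposited ratio, later minus earlier array. As a stand-in for error, the disagreement of paired probe sets of 525 genes gave, for changes against VAD, an SD for 1 probe set of 0.43 (4 h), 0.52 (8 h) and 0.59 (24 h), which leaves out the spread between animals. It was 0.35 for 8 h against 4 h, 0.34 for 24 h against 8 h and 0.41 for 24 h against 4 h. The bacterial spike-in probe sets read lower on all retinol arrays, and scaling on them would move every probe set up by 0.55, 0.50 and 0.62 on the 4, 8 and 24 h arrays, so negative changes smaller than these have that sign only in the values as deposited, and positive changes would be wider. The 5' ends of the actin, GAPDH and hexokinase control transcripts moved up relative to their 3' ends by 0.71, 1.09 and 1.01 at 4, 8 and 24 h as the mean of 3 transcripts, and the part of this in the results below was not tested.

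Promoter sequences were read for 7 of the 8 genes from the RefSeq table of build GRCr8, which gives 250 bases before to 50 bases after a gene's start. Rdh10 is not in the table. Those of Aldh1a1 and Aldh1a2 are shown because these genes were lower together after retinol as deposited, and that of Adh4 because its ratio was higher on each later array. They are Aldh1a1 at chr1:227537370-227537669 (plus strand), Aldh1a2 at chr8:80758391-80758690 (plus strand) and Adh4 at chr2:229621842-229622141 (plus strand). Capitals mark, on either strand, the octamer ATGCAAAT, the CCAAT box and the hexamer AGGTCA, the core recognition sequence of nuclear receptors.
Aldh1a1: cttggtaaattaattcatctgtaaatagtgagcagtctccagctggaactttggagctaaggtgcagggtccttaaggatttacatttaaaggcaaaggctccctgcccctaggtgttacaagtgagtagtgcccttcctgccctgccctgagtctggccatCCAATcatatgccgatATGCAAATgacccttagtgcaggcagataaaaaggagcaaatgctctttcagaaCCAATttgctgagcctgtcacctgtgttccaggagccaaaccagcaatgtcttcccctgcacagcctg
Aldh1a2: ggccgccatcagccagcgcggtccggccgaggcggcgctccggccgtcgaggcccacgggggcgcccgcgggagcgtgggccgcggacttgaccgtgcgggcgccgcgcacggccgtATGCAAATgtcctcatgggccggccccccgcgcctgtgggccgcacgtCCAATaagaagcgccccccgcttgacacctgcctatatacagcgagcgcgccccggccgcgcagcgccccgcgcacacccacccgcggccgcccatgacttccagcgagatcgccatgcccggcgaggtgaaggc
Adh4: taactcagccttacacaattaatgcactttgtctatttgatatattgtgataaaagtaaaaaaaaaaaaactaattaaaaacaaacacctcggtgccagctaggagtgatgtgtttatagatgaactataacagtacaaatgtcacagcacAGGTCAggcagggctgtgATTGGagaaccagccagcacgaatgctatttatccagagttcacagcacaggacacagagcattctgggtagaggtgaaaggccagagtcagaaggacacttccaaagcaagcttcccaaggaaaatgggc

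The octamer, chosen for the search after the sequences were seen, stood at position -72 in Aldh1a1 and -133 in Aldh1a2, counted from the annotated start, and in none of the other 5 windows. It was present in 1.78% of all 33469 promoters of the same length. Because it was chosen after the member sequences were seen, that share is no test of its presence in them. CCAAT was found in Aldh1a1, Aldh1a2, Adh4 and Adh1c and in 37.5% of all promoters. AGGTCA was found only in Adh4, at position -99, and in 16.2% of all promoters, and TATAAA only in Adh4, on the opposite strand, and in 14.2% of all. A direct repeat of AGGTCA with any 5 bases between its copies, a spacing bound by retinoic acid receptors, was in no member window and in 0.00896% of all. The searches covered both strands, matches of different motifs shared no bases in these windows, and a match is a description of the letters and not a shown binding site. The promoter of Aldh1a2 was rich in G and C (76.0%), against 48.3% for Aldh1a1, 41.3% for Adh4 and a median of 51.7% over all promoters.

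Rdh10, the membrane-bound retinol dehydrogenase of the reversible step, was higher on all retinol arrays and highest at 8 h. Its deposited ratio was 0.977 in VAD and 1.528, 2.04 and 1.438 at 4, 8 and 24 h. The 24 h value thus lay below the 8 h value and close to the 4 h value. At 8 h the difference from VAD was 1.06, a 2.09-fold higher ratio and 2.03 times the SD of 1 probe set, and 244 of the 7006 probe sets were higher still. At 4 h it was 0.65 (percentile 93.2 of all probe sets) and at 24 h 0.56 (percentile 87.7), both short of 2-fold. With spike-in scaling the changes were 1.19, 1.56 and 1.18, past 2-fold at all 3 times. Between retinol arrays Rdh10 was 0.42 higher at 8 h than at 4 h and -0.50 at 24 h against 8 h, the second of these 1.49 times the SD of 1 probe set. In bulk tissue such a difference cannot be told apart from a changed number of the cells that express the gene.

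The Rdh10 probe set derives from an expressed sequence tag, a single-pass cDNA read. The 2449 probe sets of that kind had lower medians than the rest, at -0.19, -0.26 and -0.28 at 4, 8 and 24 h. The medians were -0.04, -0.05 and -0.03 for the 3610 probe sets whose names carry neither the tag prefix nor the ending _s_at, a mark of shared probes. Among tag-derived probe sets alone Rdh10 stood at percentile 95.4 at 4 h, 97.55 at 8 h and 93.2 at 24 h.

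The 3 genes whose changes at 4, 8 and 24 h lay closest to those of Rdh10, by Euclidean distance over these 3 values, were Nf2, Slco2a1 and Mgll. Nf2, the gene of the tumour suppressor merlin, was at 0.59, 0.99 and 0.61, a distance of 0.10. The prostaglandin transporter gene Slco2a1, as the mean of 2 probe sets, was at 0.55, 1.08 and 0.65 (distance 0.13). The monoglyceride lipase gene Mgll was at 0.69, 0.93 and 0.60 (distance 0.15). The distances rest on 3 values that share the VAD array and are a description only.

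**Figure D1:**
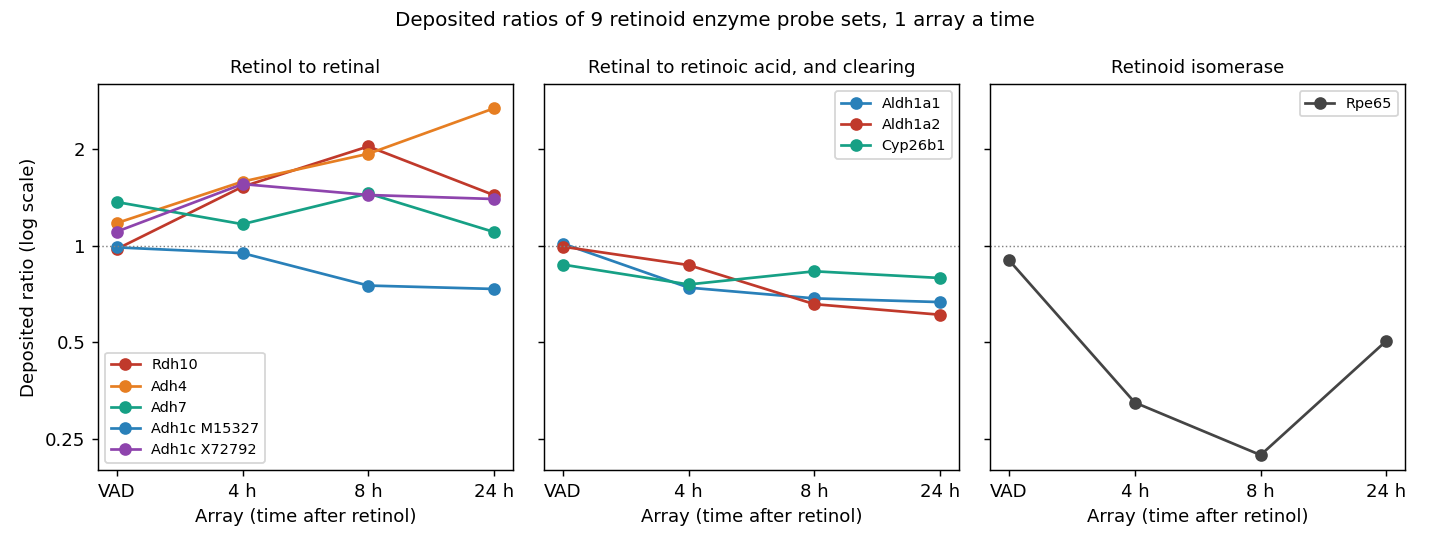
Deposited ratio of each enzyme probe set (vertical axis, no unit, log scale) on the VAD array and the arrays 4, 8 and 24 h after retinol, 1 point for each array and no error bars because there are no replicates. Rdh10 reached 2.04 at 8 h, Adh4 climbed to 2.681 at 24 h, Aldh1a1 and Aldh1a2 ended at 0.668 and 0.61, and Rpe65 was lowest at 8 h with 0.223.

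Adh4, the class II alcohol dehydrogenase best known from liver, was higher on each later array. Its deposited ratio was 1.177 in VAD and 1.585, 1.935 and 2.681 at 4, 8 and 24 h. As deposited it was the 1 enzyme whose ratio increased at every step, and with spike-in scaling Cyp26b1 did so too. Its differences from VAD were 0.43, 0.72 and 1.19 at 4, 8 and 24 h, the last a 2.28-fold higher ratio, 2.01 times the SD of 1 probe set and exceeded by 204 of 7006 probe sets. With spike-in scaling they were 0.98, 1.22 and 1.81, past 2-fold at 8 h also. The step from 8 h to 24 h was 0.47 (percentile 94.2), and 24 h against 4 h gave 0.76 (percentile 96.4). The closest profiles were those of Pik3r1, a regulatory subunit gene of phosphoinositide 3-kinase (0.37, 0.70 and 1.17, distance 0.07), and the plakoglobin gene Jup (0.38, 0.78 and 1.04, distance 0.16). The Pik3r1 values are means of 2 probe sets that lay 0.62, 1.09 and 0.68 apart at 4, 8 and 24 h.

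Adh7, the class IV enzyme of stomach and other epithelia and an efficient retinol oxidiser, had no steady course. Its ratio was 1.369 in VAD and 1.168, 1.456 and 1.104 at 4, 8 and 24 h. The VAD ratio was itself high (percentile 97.5 of the VAD column), so the signs of the 4 h and 24 h changes turned on what they were set against. Against VAD they were -0.23 and -0.31, against a ratio of 1 they were 0.22 and 0.14, and with spike-in scaling 0.32 and 0.31. The 24 h array stood -0.40 from the 8 h array, 1.18 times the SD of 1 probe set in size.

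Adh1c, the class I alcohol dehydrogenase, was read by 2 probe sets that lay on opposite sides of VAD as deposited, though with spike-in scaling both lay above it. The probe set designed on sequence M15327 had ratios of 0.989 in VAD and 0.949, 0.752 and 0.734 at 4, 8 and 24 h. The probe set designed on sequence X72792, whose name marks probes shared by several transcripts, had 1.107 in VAD and 1.557, 1.44 and 1.399 at 4, 8 and 24 h. Against VAD they differed in sign at each time, with -0.06, -0.40 and -0.43 for the M15327 probe set (0.49, 0.11 and 0.19 with spike-in scaling) and 0.49, 0.38 and 0.34 for the other. The means of the pair were 0.22, -0.01 and -0.05, so no direction against VAD can be given for Adh1c.

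The Adh1c probe sets lay 0.55 apart at 4 h and 0.77 apart at both later times. Over the 525 genes with a pair from different sequences, the median gap was 0.36, 0.45 and 0.55 at these times, and the Adh1c gap lay at percentiles 66.7, 71.8 and 68.0. The other 7 genes were read by 1 probe set each and have no such comparison. Between the 8 h and 24 h arrays the probe sets of the pair gave the same reading, -0.04 each. Between the other retinol arrays they shared a sign. The M15327 and X72792 probe sets were at -0.34 and -0.11 for 8 h against 4 h. For 24 h against 4 h they were at -0.37 and -0.15. Each of these changes was under the SD of 1 probe set in size.

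**Figure D2:**
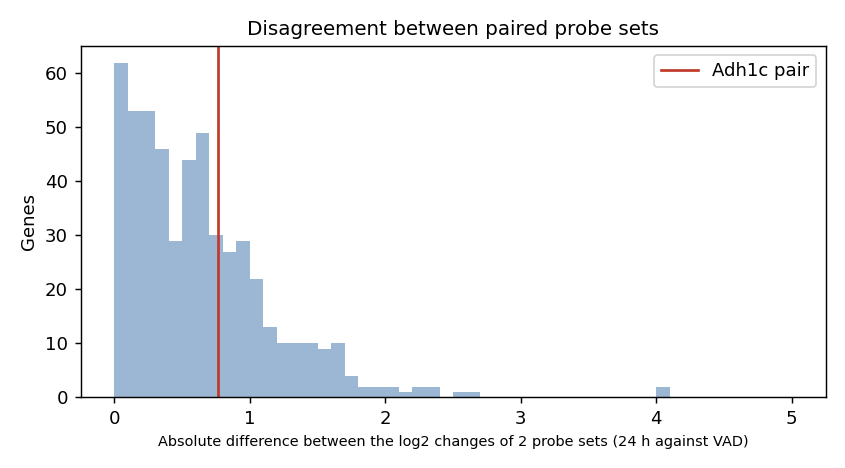
Number of genes (vertical axis) by the absolute difference between the log2 changes of their paired probe sets at 24 h against VAD (horizontal axis, log2 units), over 525 genes. The line marks Adh1c at 0.77, to the right of the median of 0.55 and well inside the range of the other genes.

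The alcohol dehydrogenase genes lie side by side on rat chromosome 2, in the order Adh7, Adh1c, Adh6a, Adh6, Adh4 and Adh5 among protein-coding genes of the RefSeq assembly GRCr8. Of these 6, Adh6a and Adh6 had no probe set with 1 symbol and were not analysed here. Adh5, the class III enzyme that handles formaldehyde bound to glutathione, had ratios of 1.144 in VAD and 0.828, 0.70 and 0.672 at 4, 8 and 24 h. Its change at 24 h was -0.77, while that of its neighbour Adh4 was 1.19.

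Aldh1a1 and Aldh1a2, the retinal dehydrogenases of the irreversible step, were both lower on every retinol array and lowest at 24 h as deposited, while spike-in scaling put both above VAD at 4 h (0.09 and 0.36). Their promoters are printed above, where the octamer was chosen for the search after the sequences were seen. Its part in these ratios was not tested. Aldh1a1 had ratios of 1.016 in VAD and 0.741, 0.686 and 0.668 at 4, 8 and 24 h. Aldh1a2 had 0.994 in VAD and 0.871, 0.658 and 0.61 at 4, 8 and 24 h. Most of the Aldh1a1 difference was present by 4 h (-0.46, then -0.57 and -0.60), whereas Aldh1a2 was at -0.19 at 4 h and then at -0.60 and -0.70. The 8 h array stood -0.40 from the 4 h array for Aldh1a2 (percentile 8.32) and -0.11 for Aldh1a1 (percentile 36.1). Neither gene reached 2-fold at any time.

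At 24 h Aldh1a1 lay at percentile 14.5 and Aldh1a2 at percentile 10.4 of all probe sets, and their differences from VAD were 1.02 and 1.19 times the SD of 1 probe set in size. Scaling on the spike-ins would leave Aldh1a1 at 0.02 and Aldh1a2 at -0.08 at 24 h, so that their lower ratios hold for the values as deposited and relative to most other probe sets.

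Cyp26b1, the retinoic acid hydroxylase that in the mouse testis protects germ cells from retinoic acid, had the narrowest span of the group as deposited. Its ratio was 0.874 in VAD and 0.758, 0.833 and 0.794 at 4, 8 and 24 h. Its changes of -0.21, -0.07 and -0.14 against VAD (0.34, 0.43 and 0.48 with spike-in scaling) were each under the SD of 1 probe set, and its whole span over the 4 arrays was 0.21, narrower than that of 89.1% of probe sets. With spike-in scaling its span was 0.48, and that of Aldh1a1 was narrower at 0.16. Its probe set also derives from a sequence tag, among which it stood at percentiles 47.9, 66.2 and 62.6.

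Rpe65, the isomerase that makes 11-cis-retinol from retinyl esters in the pigment epithelium of the eye, showed the widest differences from VAD of the group as deposited. Its ratio was 0.902 in VAD and 0.325, 0.223 and 0.506 at 4, 8 and 24 h. The 4 h and 8 h arrays were far below the VAD array, and the 24 h array lay between. The change was -1.47 at 4 h, a 2.78-fold lower ratio, and -2.02 at 8 h, a 4.04-fold lower ratio that only 9 of 7006 probe sets exceeded. At 24 h it was -0.83, short of 2-fold. With spike-in scaling the changes were -0.92, -1.51 and -0.21, so that the 4 h value no longer passed 2-fold, and Adh4 at 1.81 was then the widest of the group. The 24 h array stood 1.18 above the 8 h array, a 2.27-fold higher ratio (percentile 99.4).

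The Rpe65 changes at 4 h and 8 h were 3.46 and 3.86 times the SD of 1 probe set in size. Control probe sets for which the samples should hold no matching RNA, 15 that read the opposite strand and 4 for yeast genes, ran from -1.07 to 0.91 at 4 h, from -1.41 to 0.24 at 8 h and from -1.24 to 0.35 at 24 h. Rpe65 lay below all 19 of them at 4 h and 8 h and inside their range at 24 h. Above all 19 lay Rdh10 (1.06), Adh4 (0.72) and the X72792 probe set of Adh1c (0.38) at 8 h, and Adh4 (1.19) and Rdh10 (0.56) at 24 h. At 4 h Rdh10 (0.65) lay inside the range. The upper end of the controls is a low mark at 8 h, since the X72792 probe set above it was only at percentile 83.6 of all probe sets. Of 8 retina markers 1 was measured, the arrestin gene Sag, at 0.10, -0.71 and -0.67 as the mean of 2 probe sets. These probe sets differed in sign at 24 h, at -1.57 and 0.24, so no direction can be given for Sag at that time. The closest profiles to Rpe65 were Bmp4, a bone morphogenetic protein gene (-1.66, -1.70 and -0.94, distance 0.38), the adaptor gene Sh2d4a (-1.23, -1.53 and -1.04, distance 0.58) and the oestradiol-forming dehydrogenase gene Hsd17b1 (-1.46, -1.44 and -0.97, distance 0.59), none of them as near as the neighbours of Rdh10 or Adh4.

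As a group the enzyme probe sets had no common direction as deposited. With spike-in scaling 8, 6 and 7 of 9 lay above VAD at 4, 8 and 24 h. That scaling moves all 7006 probe sets up by 0.55, 0.50 and 0.62, and their medians as deposited were -0.09, -0.11 and -0.11. Most of all probe sets thus lie above VAD under it too, and these counts are no direction of the enzymes. At 4 h, 0 of 9 were at least 2-fold higher, against 2.21% of all probe sets, and 1 was at least 2-fold lower (Rpe65), against 1.58%. At 8 h, 1 was higher (Rdh10), against 4.04%, and 1 lower (Rpe65), against 2.53%. At 24 h, 1 was higher (Adh4), against 4.68%, and 0 lower, against 3.41%. With 9 probe sets, 1 past 2-fold is the smallest count above none, and these counts do not set the group apart from the background.

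Between retinol arrays, 0 of 9 passed 2-fold in either direction at 8 h against 4 h (background 0.885% higher and 1.04% lower). At 24 h against 8 h, 1 was higher (Rpe65, background 0.899%) and 0 lower (background 0.856%). At 24 h against 4 h there were 0 in either direction (background 1.47% higher and 1.53% lower). Against VAD, the 9 probe sets had median changes of -0.19, -0.07 and -0.31 at 4, 8 and 24 h, beside medians of -0.09, -0.11 and -0.11 for all 7006. Below VAD lay 6 of 9 at 4 h, 5 at 8 h and 6 at 24 h, against 59.3%, 59.8% and 58.5% of all probe sets. With spike-in scaling, which moves all probe sets alike, the medians of the 9 became 0.36, 0.43 and 0.31.

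**Figure D3:**
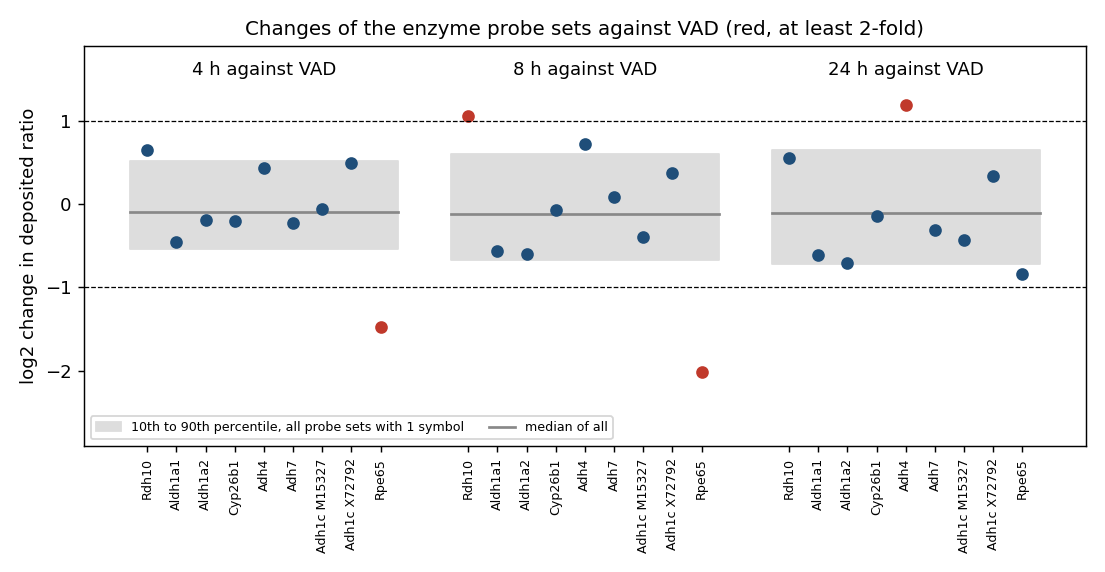
Log2 change in deposited ratio against VAD at 4, 8 and 24 h (vertical axis) for each of the 9 enzyme probe sets (points), with the range from the 10th to the 90th percentile of all 7006 probe sets with 1 symbol (grey) and their median (line). Dashed lines mark 2-fold, and the points past it are Rpe65 at 4 h and 8 h, Rdh10 at 8 h and Adh4 at 24 h.

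By step of the pathway at 24 h, the reversible step had Adh4 at 1.19, Rdh10 at 0.56, the Adh1c pair at 0.34 and -0.43 and Adh7 at -0.31. This step has the most probe sets and clearance only that of Cyp26b1, so the spreads of the steps cannot be compared. Both retinal dehydrogenases lay at or below -0.60 as deposited. The enzyme of clearance, Cyp26b1, was at -0.14. Whether these steps differ from each other was not tested, as no replicate exists.

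The other genes of the pathway were taken as lists, with a gene's value the mean over its probe sets, and read against 4736 genes. Past 2-fold in the upward and downward direction were 1.41% and 1.25% of all genes at 4 h, 2.83% and 1.88% at 8 h, and 3.27% and 2.64% at 24 h. These shares are for the values as deposited. Spike-in scaling moves every gene up alike, so the scaled counts of the lists below have no background share here. Of the 7 measured other alcohol, retinol and carbonyl dehydrogenases or reductases (25 listed), 0 passed 2-fold at any time, and their medians were -0.29, -0.36 and -0.44 at 4, 8 and 24 h, beside -0.09, -0.12 and -0.12 over all genes. With spike-in scaling these 7 genes had medians of 0.26, 0.14 and 0.18, still with 0 past 2-fold. The members with the widest change at 24 h were Adh5 (-0.77), the aldose reductase gene Akr1b1 (-0.71) and the carbonyl reductase gene Cbr1 (-0.49).

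Of the 7 other aldehyde dehydrogenases and oxidases measured (21 listed), 1 was at least 2-fold higher at 8 h and at 24 h and 0 lower at any time, with medians of -0.21, -0.18 and -0.12. With spike-in scaling the medians were 0.34, 0.32 and 0.50, with 1 gene at least 2-fold higher at each time. The gene past 2-fold as deposited was Aldh6a1, the methylmalonate semialdehyde dehydrogenase of valine breakdown, with ratios of 0.756 in VAD and 1.362, 1.57 and 1.724 at 4, 8 and 24 h. Its VAD ratio lay well below 1, and against a ratio of 1 in place of VAD 0 genes of this list were at least 2-fold higher at 8 h or 24 h. The folate enzyme gene Aldh1l1 was at -0.53 and the mitochondrial acetaldehyde dehydrogenase gene Aldh2 at -0.44 at 24 h.

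Among 11 retinoid carriers and ester enzymes (20 listed), 0 were at least 2-fold lower at 4 h, 1 at 8 h (Fabp5) and 2 at 24 h (Fabp5 and Crabp2), and 0 were higher at any time, with medians of -0.22, -0.27 and -0.09. With spike-in scaling 0 were lower at any time and 2, 1 and 2 were higher at 4, 8 and 24 h, with medians of 0.33, 0.23 and 0.53. Fabp5, which carries fatty acids and retinoic acid, had ratios of 1.032 in VAD and 0.728, 0.432 and 0.387 at 4, 8 and 24 h. Crabp2, which delivers retinoic acid to its receptors, had 0.394, 0.238, 0.235 and 0.174 on the same arrays, with the VAD ratio already far from 1. The retinol carrier partner gene Ttr was at 0.76 at 24 h, the mean of 2 probe sets at 0.46 and 1.06. With only the probe set of highest mean ratio for each gene, 1 gene of this list was at least 2-fold higher at 24 h.

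Among 9 cytochrome P450 genes with retinoid activity (12 listed), 0 passed 2-fold against VAD at any time as means over probe sets, and the medians were -0.19, -0.14 and -0.02. With spike-in scaling 1, 0 and 1 were at least 2-fold higher at 4, 8 and 24 h and 0 lower, with medians of 0.36, 0.36 and 0.60. As deposited, Cyp4f4 was at -0.97, Cyp2c22 at -0.79 and Cyp2c7 at 0.42 at 24 h. Some of the means join probe sets that differed widely. The 4 of Cyp1b1 ran from -0.44 to 1.40 at 8 h, and the 3 of Cyp2c11 from -0.55 to 1.22 at 4 h. With only the probe set of highest mean ratio for each gene, 2, 1 and 1 were at least 2-fold higher at 4, 8 and 24 h, counts with no background share here. Among 11 receptors and target genes (16 listed), 1 was at least 2-fold higher at 24 h, the stem cell factor receptor gene Kit (1.01), and 0 otherwise, with medians of 0.06, -0.05 and 0.01. The Kit value is the mean of 2 probe sets at 0.76 and 1.25, the lower of them short of 2-fold. With spike-in scaling the medians were 0.61, 0.45 and 0.63, with 2 genes at least 2-fold higher at each time. As deposited, the receptor gene Rxra was at -0.50 and the homeobox gene Cdx1 at -0.46 at 24 h.

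**Figure D4:**
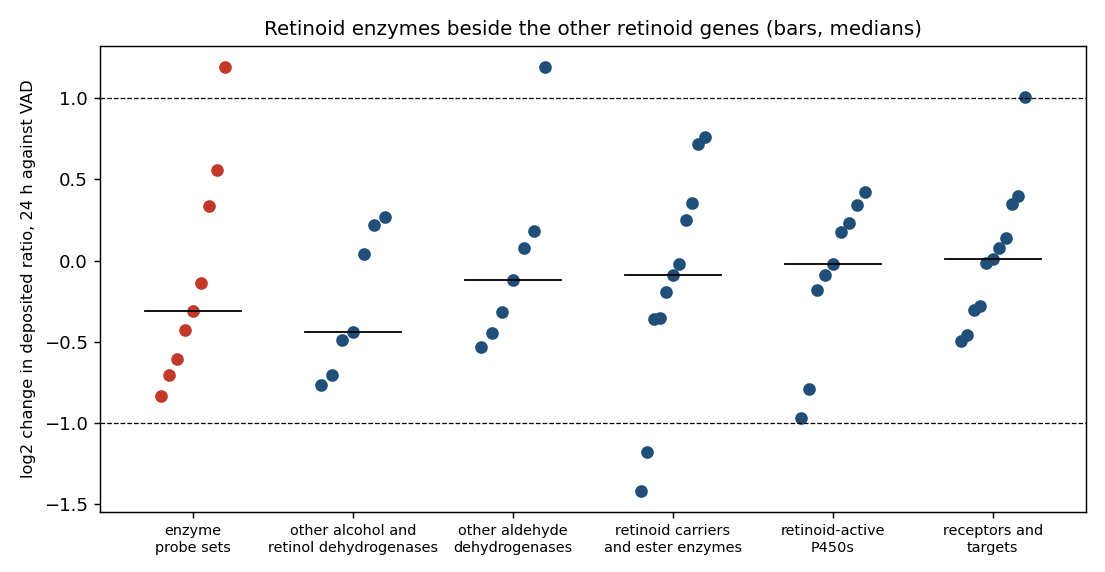
Log2 change in deposited ratio at 24 h against VAD (vertical axis) for the 9 enzyme probe sets (red) and for genes of 5 other lists of the retinoid pathway (blue), each point a probe set or gene and each bar the median. The red points run from -0.83 to 1.19, and the points past 2-fold in the other lists are Aldh6a1, Fabp5, Crabp2 and Kit.

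Markers of testis cell types in which these enzymes may be made were read on the same arrays, and their medians and counts below are those of the deposited values. Of all 4736 genes, 1836, 1824 and 1896 lay above VAD at 4, 8 and 24 h. At least 2-fold higher were 1.41%, 2.83% and 3.27% of all genes at these times, and at least 2-fold lower 1.25%, 1.88% and 2.64%. The 12 measured Sertoli markers of 17 had medians of 0.38, 0.30 and 0.17 at 4, 8 and 24 h. Above VAD lay 8, 7 and 7 of the 12, with 0, 2 and 2 at least 2-fold higher and 0 lower. At 24 h they ran from Kitlg at 1.09 to Inha at -0.50. The 7 Leydig markers of 10 had medians of 0.19, 0.12 and -0.59, and 4, 4 and 2 of the 7 lay above VAD. Of these 0, 1 and 1 were at least 2-fold higher and 0, 0 and 3 lower, and at 24 h they ran from Nr5a1 at 1.63 to Cyp11a1 at -1.95.

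The 8 spermatid markers of 9 had medians of 0.75, -0.37 and -0.53, with 1, 0 and 0 at least 2-fold higher and 0, 0 and 1 lower. The 7 spermatocyte markers of 9 had medians of 0.61, -0.17 and -0.18, with 1, 0 and 0 at least 2-fold higher and 0 lower. Both lists thus had their highest median at 4 h. The 2 spermatogonial markers of 7 (Kit and Gfra1) had medians of 0.53, 0.52 and 0.62, with 0, 0 and 1 at least 2-fold higher. The 6 peritubular myoid markers (-0.24, -0.43 and -0.34) and the 4 macrophage markers of 6 (-0.04, -0.02 and 0.26) had 0 past 2-fold. Of tissues other than testis, the 7 liver markers had medians of -0.10, -0.11 and -0.24 with 0 past 2-fold. The 6 epididymal markers of 11 had medians of -0.30, -0.64 and -0.89, with 1, 2 and 2 at least 2-fold lower (Cd52 at -2.55 and Scgb2a1 at -2.24 at 24 h). Above VAD lay 0 of these 6 at any time, beside 1836, 1824 and 1896 of all 4736 genes at 4, 8 and 24 h. Spike-in scaling moves every gene up alike, so that most of all genes lie above VAD under it. With it 12 of 12 Sertoli markers lay above VAD at each time, while 4, 1 and 2 of the 6 epididymal markers did. The part of any of these cell types in the enzyme ratios was not tested.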

How the data were processed

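Whole rat testis was hybridised as biotinylated cRNA from 10 micrograms of total RNA, per the labels' protocols. The authors deposited linear ratios per probe set, 1 column for each of the 4 samples. GCOS and MAS5 are named in the submitters' processing notes, and the sources used here do not say how signals became ratios, against which reference or with what scaling. Because only ratios were deposited, no background, detection or depth could be assessed, and the number of arrays limits the precision.

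Groups were taken from the source labels. Of 8799 probe sets, 59 were controls, 7006 had 1 gene symbol in the platform annotation, 308 had several and 1426 had no entry. Entrez IDs, of which 6985 were in the RefSeq table of GRCr8, gave current symbols for 4736 genes. Ratios were taken as log2, and changes were differences between arrays, with no test, since there was 1 array for each group. A change was counted past 2-fold. Error was taken as the SD of the difference between paired probe sets from different sequences, divided by the square root of 2, over 525 genes, and the calculation was tested on simulated data. Alternatives were median centring, spike-in scaling, a ratio of 1 in place of VAD, a 1.5-fold threshold and 1 value for each gene.

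The 8 genes, the 5 pathway lists and the 10 marker lists were chosen with earlier results of these data known. Named genes were all probe sets of the 8 genes, list members past 2-fold against VAD at any time or else the 3 with the largest change at 24 h, the 3 closest profiles of each enzyme past 2-fold, and 2 markers of each list. Only part of the closest profiles and of the markers is printed. The 19 negative control probe sets, the sequence-tag classes, the neighbours of the alcohol dehydrogenases and the promoter motifs were added after the data were seen. A comparison of paralog proteins that had been planned was not made, as protein sequences were not used here. Analyses ran in Python 3.11.15 with pandas 2.3.3 and numpy 2.4.6, and figures in matplotlib 3.10.9.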

Additional observations from a re-analysis of the deposited data

How the results depend on the processing

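Centring each array on its median and setting changes against a ratio of 1 left every enzyme probe set on its side of 2-fold (54 and 27 values), and turned the sign of 2 values each, none of them past 2-fold. Scaling on the spike-ins moved 5 of 54 values across 2-fold and turned the sign of 16, none of which had passed 2-fold. Under it the probe sets at least 2-fold higher were 2 at 4 h (Rdh10 at 1.19 and the X72792 probe set of Adh1c at 1.04, in place of 0), 2 at 8 h (Rdh10 at 1.56 and Adh4 at 1.22, in place of 1) and 2 at 24 h (Adh4 at 1.81 and Rdh10 at 1.18, in place of 1). Those at least 2-fold lower at 4 h became 0 in place of 1, with Rpe65 at -0.92. The shares of all probe sets given for the deposited values are no background for these counts. The 90th percentile of all 7006 was 0.51, 0.61 and 0.65 at 4, 8 and 24 h as deposited. Moved up by 0.55, 0.50 and 0.62, it would also pass 2-fold at each time. The median of the enzyme probe sets became 0.36 at 4 h, 0.43 at 8 h and 0.31 at 24 h, in place of -0.19, -0.07 and -0.31, and 0.079 for 24 h against 8 h in place of -0.04. Against a ratio of 1 the 8 h median was -0.26. With 1 value for each gene the median for 8 h against 4 h was 0.012 in place of -0.11. At a threshold of 1.5-fold the numbers higher were 1 at 4 h, 2 at 8 h and 2 for 24 h against 4 h, and the numbers lower were 2 at 8 h and 3 at 24 h. The share of all probe sets past 1.5-fold was not taken, so these counts have no background here. As deposited, the 90th percentile of all 7006 at 8 h (0.61) already lay past 1.5-fold. So did the 10th percentile at 8 h (-0.67) and at 24 h (-0.72). No probe set named a member together with other symbols, so that alternative gave no value. No paired analysis was possible because each group has 1 array and the labels carry no replicate numbers. Ratios hold no signal over background, so whether Rpe65, Adh4 or Adh7 was detectable in testis cannot be shown.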
